A study of Rattus norvegicus with 6 samples.

Results

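The regulatory factor X (RFX) family was followed at the level of chromatin accessibility, through the accessible sites (ACS) whose nearest gene in the deposited annotation was one of Rfx1 to Rfx7. These ACS numbered 63 of 101603 in all. Rfx3 had 36 of them, Rfx6 14, Rfx2 6, Rfx7 3, Rfx1 2 and Rfx5 2, whereas Rfx4 had 0. A count of 0 means that no ACS was annotated with that symbol, and whether the gene was closed cannot be read from it. Accessibility was measured by ATAC-seq, in which the Tn5 transposase inserts sequencing adapters into open DNA, in dissociated islet cells of Sprague-Dawley rats. The Adult group held 3 male rats of around 90 days, 1 rat per library, with the replicate numbers 4, 5 and 6. The P10 group held 3 litters of pups at postnatal day 10, with 3 to 5 male and female pups pooled per library and the numbers 1, 2 and 3. Age, sex and pooling therefore cannot be told apart. A whole islet is a mixture of cell types, so that fewer cells of a type and a less accessible site in each cell cannot be told apart either.

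RFX proteins bind the X-box, an imperfect palindrome built from half-sites, through a winged-helix domain, and most of them do so as dimers. Rfx1, Rfx2 and Rfx3 are known as activators of genes for cilia. Rfx3 and Rfx6 act in the formation and function of the endocrine cells of the islet, and loss of Rfx6 leads to neonatal diabetes. Rfx5 works with Rfxap and Rfxank at the promoters of the major histocompatibility complex (MHC) class II genes. Rfx4 is known from brain development and Rfx7 is a widely expressed member.

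Promoter windows from RefSeq (assembly GRCr8, 250 bases before to 50 bases after a gene start) were found for 6 of the 7 members, and Rfx6 was not matched. They are shown for 4 members because the family recognizes the X-box and the windows of 3 of them hold its half-site. The search used GTTGCC and its reverse complement GGCAAC, and also GCAACNGTTGC, which is its own reverse complement and joins the first 5 bases of 2 half-sites pointing away from each other. The second pattern was chosen after the sequences had been read. Capitals mark the matches, which overlap where both patterns are present, and each window is written 5′ to 3′ on the strand of its gene.
Rfx1: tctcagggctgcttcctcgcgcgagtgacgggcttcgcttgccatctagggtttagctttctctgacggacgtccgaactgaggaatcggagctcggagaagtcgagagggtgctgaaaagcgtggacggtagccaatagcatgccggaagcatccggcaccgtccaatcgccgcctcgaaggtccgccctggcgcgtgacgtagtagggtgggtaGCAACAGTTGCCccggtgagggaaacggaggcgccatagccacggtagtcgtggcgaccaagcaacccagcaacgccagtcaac
Rfx2: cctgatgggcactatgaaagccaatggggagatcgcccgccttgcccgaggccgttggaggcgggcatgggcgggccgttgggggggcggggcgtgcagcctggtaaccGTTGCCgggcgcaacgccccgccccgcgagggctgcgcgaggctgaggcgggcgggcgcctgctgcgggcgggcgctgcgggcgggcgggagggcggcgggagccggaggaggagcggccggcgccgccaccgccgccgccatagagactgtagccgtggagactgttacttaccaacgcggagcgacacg
Rfx3: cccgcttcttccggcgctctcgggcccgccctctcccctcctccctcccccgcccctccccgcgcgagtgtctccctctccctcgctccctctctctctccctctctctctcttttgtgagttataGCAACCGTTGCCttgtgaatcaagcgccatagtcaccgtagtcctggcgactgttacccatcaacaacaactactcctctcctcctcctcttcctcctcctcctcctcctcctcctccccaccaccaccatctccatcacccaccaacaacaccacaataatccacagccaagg
Rfx7: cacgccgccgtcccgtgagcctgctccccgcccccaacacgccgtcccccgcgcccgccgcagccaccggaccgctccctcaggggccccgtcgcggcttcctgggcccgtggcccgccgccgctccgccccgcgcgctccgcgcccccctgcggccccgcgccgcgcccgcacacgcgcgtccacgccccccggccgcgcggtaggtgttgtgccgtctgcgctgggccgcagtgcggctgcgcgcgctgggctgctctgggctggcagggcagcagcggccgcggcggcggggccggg
The windows lie at chr19:40996760-40997059, minus strand, for Rfx1, chr9:1758097-1758396, minus strand, for Rfx2, chr1:235122373-235122672, minus strand, for Rfx3 and chr8:82134497-82134796, plus strand, for Rfx7.

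The half-site began 28 bases before the gene start in Rfx1, 141 bases before it in Rfx2 and 118 bases before it in Rfx3. GTTGCC occurred on either strand in 12.2% of the 33469 promoter windows of all genes. The paired pattern was present in the windows of Rfx1 and Rfx3 and in 15 windows in all, or 0.0448%. Neither pattern was found in the windows of Rfx4, Rfx5 and Rfx7. Another pattern, GTTGCCNNGGCAAC, in which the half-sites point towards each other, was in 0.134% of all windows and in none of the members' windows. Rfx7 had the window richest in CpG, with 53 CG pairs, against 42 in Rfx2, 30 in Rfx1, 16 in Rfx5, 14 in Rfx3, 3 to 18 in the windows of Rfx4 and a median of 7 over genes. The ACS have coordinates of the Rn5 assembly, so these windows were not placed on them, and a match describes letters rather than a bound site.

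The adult libraries held 7916919 to 11903909 integrations in ACS and the P10 libraries 13491534 to 21168463. Of these, 3644 to 6444 and 7118 to 12771 lay in the RFX ACS. Log2 counts correlated at r = 0.927 to 0.956 between libraries of the same age and 0.895 to 0.919 between ages, over ACS and as a description. Defining endocrine genes had ACS, among them Ins1, Ins2, Gcg and Sst, while Mafa, Neurog3, Insm1, Gip and Ppy of the endocrine genes listed below had none under their symbols. Summed over the 88 ACS of 7 of 8 beta cell markers, accessibility was 905 to 1043 CPM in adults and 851 to 1153 CPM at P10, so the ages overlapped. The 103 ACS of the 5 alpha cell markers summed to 858 to 987 CPM in adults and 696 to 790.2 CPM at P10, with 22 ACS called higher in adults and 3 lower (21.4% and 2.91%, against 12.3% and 6.63% of all ACS). The 5 endothelial markers (52 ACS, 9 called higher and 1 lower, or 17.3% and 1.92%) summed to 374 to 456 CPM in adults and 342 to 355 CPM at P10. The alpha and endothelial ACS lay at a median of 228 and 106 kb from the gene start, against 61.1 kb over all ACS. Within 1 kb of a gene start the alpha markers had 5 ACS and the endothelial markers 2, and none of these was called. Sums of 3 of 4 duct markers (208 to 243 CPM in adults and 175 to 194 CPM at P10), 4 of 6 acinar markers (356 to 386 CPM in adults and 323 to 349 CPM at P10) and 5 mesenchymal markers (322 to 342 CPM in adults and 306 to 317 CPM at P10) were also higher in every adult library. The delta markers (141 to 183 CPM in adults and 151 to 167 CPM at P10) and the immune markers, 4 of 5 with ACS (63.2 to 81.2 CPM in adults and 53.7 to 64.6 CPM at P10), overlapped between the ages. The part of cell composition in the differences between ages below was not tested.

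The first question was whether the ACS of the family opened or closed between P10 and adulthood. Integrations were scaled to CPM (counts per 1000000 integrations in ACS) and compared with edgeR's quasi-likelihood test over all ACS, and an ACS was called Up (higher in adults) or Down at a p-value under 0.05 and a false discovery rate (FDR) under 0.2, the limits used in the study. Of the 63 RFX ACS, 3 were called Up, where 12.3% of all ACS were, and 6 were called Down, where 6.63% of all ACS were. The called ACS belonged to Rfx2 (2 Up), Rfx3 (1 Up and 5 Down) and Rfx5 (1 Down). The remaining 54 did not pass, and 11 of the 63 had an unadjusted p-value under 0.05. Every adult library was above every P10 library at 7 RFX ACS (13.8% of all ACS) and below at 11 (10.9% of all ACS). The median log2 fold change was -0.11 over the RFX ACS and -0.01 over all ACS. The RFX ACS were weaker, with a median mean count of 37 against 64.8 over all ACS. Among all ACS, median changes were -0.18 at a mean count under 20, -0.09 at 20 to 50 and 0.05 at 50 or more. Up calls in these classes were 0.482%, 6.43% and 17.3%. Among the RFX ACS the medians of the classes were -0.48, -0.05 and -0.08 (11, 26 and 26 ACS). Without P10 replicate 2, the RFX calls dropped to 1 Up and 2 Down, and the calls over all ACS dropped from 12504 Up and 6738 Down to 7973 and 3285. Without P10 replicate 3 the RFX calls were 1 Up and 5 Down (8908 and 4232 over all ACS). Without P10 replicate 1 the RFX calls were 5 Up and 4 Down (12974 and 6892 over all ACS). Of all calls 65.0% were Up, a share that was 49.3% with column sums as library sizes, 54.9% with cyclic loess scaling and 1.69% with the total reads per library as library sizes, where the RFX calls were 2 Up and 9 Down, 5 Up and 7 Down, and 0 Up and 42 Down. With total reads, 61663 of the 101603 ACS were called Down.

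**Figure D1:**
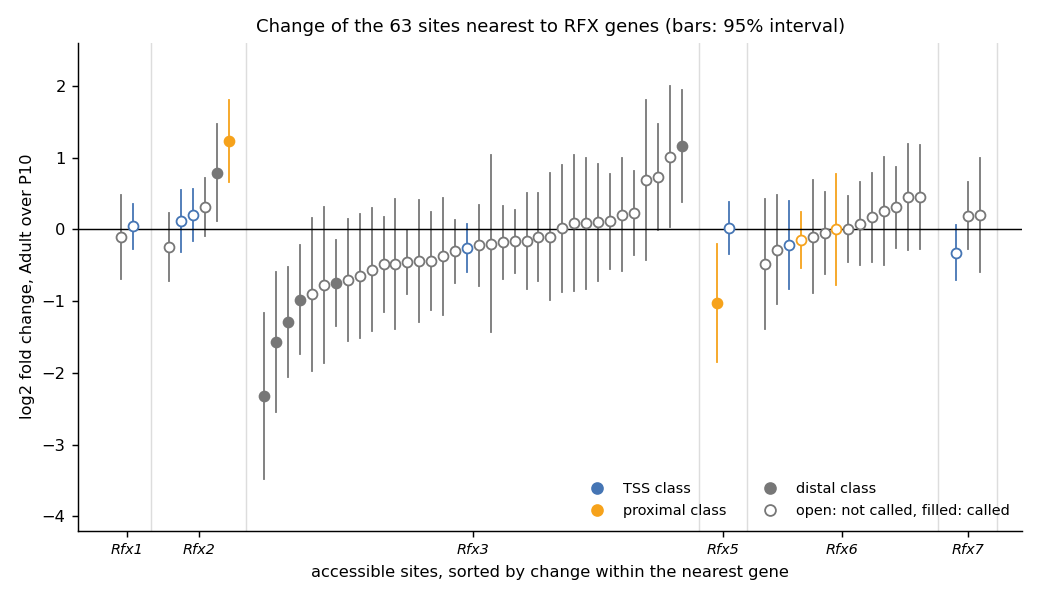
Log2 fold change of each of the 63 ACS, adult over P10, grouped by nearest gene and sorted within it, with 95% intervals. Filled symbols mark the 9 called ACS and colours the class by distance, and no ACS of the TSS class is filled.

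The 7 ACS of the class at the transcription start site (TSS, within 1 kb of a gene start) were all among those not called, and the class as a whole was called in 2.73% (Up) and 7.87% (Down) of its 11055 ACS. Proximal ACS lie up to 10 kb away and distal ones mostly farther, although the nearest ACS annotated as distal lies 1000 bp away. Of the 4 proximal RFX ACS 1 was Up and 1 was Down, where 11.2% and 6.71% of all proximal ACS were. Of the 52 distal ones 2 were Up and 5 were Down, where 13.8% and 6.45% of all distal ACS were. In CPM per kilobase of ACS (mean ± SD, n = 3 each), the TSS ACS ranked in adults from the upstream one of Rfx2 (84.4 ± 11.0 in adults and 73.7 ± 6.19 at P10) and that of Rfx1 (77.6 ± 14.7 in adults and 75.4 ± 6.15 at P10) through Rfx5 (57.7 ± 11.7 in adults and 57.0 ± 8.74 at P10) and the second of Rfx2 (55.9 ± 4.85 in adults and 51.4 ± 3.23 at P10) to Rfx3 (23.3 ± 0.684 in adults and 27.8 ± 3.74 at P10), Rfx7 (15.1 ± 1.24 in adults and 18.9 ± 1.32 at P10) and Rfx6 (8.02 ± 1.43 in adults and 9.26 ± 1.12 at P10). The first pair and the second pair in this order lay within their spread, and Rfx1 and Rfx5 overlapped in adults but not at P10, whereas Rfx3, Rfx7 and Rfx6 did not overlap in any library of the same age. ACS differ in width, so these levels average over wider and narrower windows.

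Rfx6, which directs islet endocrine differentiation and is carried by rat chromosome 20 (chr20:34502142-34548438 in Rn5), had 14 ACS, and none of them was called in either direction. Its TSS ACS (chr20:34501879-34502336) gave 3.98, 2.92 and 4.12 CPM in the adult libraries and 4.83, 3.92 and 3.96 CPM in the P10 libraries. The groups overlapped, and the log2 fold change was -0.22 (95% interval -0.83 to 0.40, FDR 0.758). The Rfx6 ACS with the most integrations was not the TSS but a 1114-bp proximal ACS 8.61 kb upstream (chr20:34493537-34494650), with 24.9, 24.2 and 17.7 CPM in the adult libraries and 27.3, 22.3 and 24.3 CPM in the P10 libraries. Here too the ages overlapped, at a log2 fold change of -0.15 (95% interval -0.53 to 0.24, FDR 0.738).

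The other 12 Rfx6 ACS comprised 3 inside the gene and 9 downstream of it, the farthest 134 kb from its start. Their log2 fold changes ran from -0.49 to 0.45, with a median of -0.0008 over all 14. An intragenic ACS 43.8 kb from the start, near the 3′ end of the gene, had the second most integrations, with 12.7 ± 2.91 CPM in adults and 12.7 ± 2.07 CPM at P10 (SD, n = 3 each). At 2 of the 14 ACS, both downstream at 68.4 and 80.2 kb from the start, every adult library was above every P10 library, which held at 13.8% of all ACS. Neither passed the test (FDR 0.525 and 0.584). The TSS ACS carried a small part of the integrations assigned to Rfx6, at 4.65, 4.0 and 5.86% in the adult libraries and 5.99, 5.25 and 5.29% in the P10 libraries.

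Summed over its 14 ACS, Rfx6 gave 79.9, 74.1 and 73.0 CPM in the adult libraries and 77.3, 75.0 and 77.5 CPM in the P10 libraries. The ages overlapped (log2 fold change -0.02, SE 0.11, 95% interval -0.25 to 0.21, FDR 0.95), and the interval spans folds from 0.843 to 1.16. The genes whose summed accessibility varied most like that of Rfx6 over the 6 libraries, among 8970 genes with at least 3 ACS, were Hnrnpul1 (Pearson's r 0.966), G3bp2 (0.955) and Tpst1 (0.938). The libraries share depth and age in such a correlation, so it is given as a description.

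Rfx3, an activator of cilia genes that is also needed for islet endocrine cells, lies on the minus strand of chromosome 1 (chr1:253103251-253354247, 251 kb). It held most of the 63 ACS of the family and also most of the called ones. Of its 36 ACS 5 were Down and 1 was Up (13.9% and 2.78%, against 6.63% and 12.3% of all ACS). The largest difference was at a distal ACS inside the gene, 123 kb from its start (chr1:253231596-253231874), where 0.181, 0.292 and 0.387 CPM in the adult libraries and 2.05, 1.28 and 0.899 CPM in the P10 libraries were found. Every adult library was below every P10 library (log2 fold change -2.32, SE 0.57, FDR 0.00789, 95% interval -3.48 to -1.17), but the adult values rest on 2, 3 and 3 integrations. DESeq2 gave this ACS no adjusted p-value. Peaks were called on each age separately, so an ACS can enter the set through the peaks of either age alone. For an ACS this weak in adults that would favour a Down call in advance, as for the other weak Down ACS of Rfx3 below. Which age's peaks gave an ACS was not examined.

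A distal ACS 24.9 kb upstream of Rfx3 (chr1:253379126-253379572) gave 1.17, 1.66 and 1.03 CPM in the adult libraries and 3.35, 3.64 and 2.64 CPM in the P10 libraries. It was 2.45-fold higher at P10 without overlap (log2 fold change -1.30, SE 0.37, FDR 0.0261), and the call held without each library in turn. The ACS 269 kb from the start, beyond the 3′ end (chr1:253085200-253085429), had 0.904, 0.779 and 0.645 CPM in the adult libraries and 1.35, 4.14 and 1.74 CPM in the P10 libraries. It was called Down (log2 fold change -1.57, SE 0.48, FDR 0.0346), with P10 replicate 2 far above the other P10 libraries, and without that library the log2 fold change was -0.99 at an FDR of 0.356.

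An intronic or exonic position inside the gene is not separated in the annotation, which places a further Down ACS 21.4 kb into Rfx3 (chr1:253332884-253333105). It showed 5.24, 2.73 and 4.38 CPM in the adult libraries and 8.55, 6.63 and 5.55 CPM in the P10 libraries. All adult values were lower (log2 fold change -0.75, SE 0.29, FDR 0.119), and the call was lost without Adult replicate 5, P10 replicate 1 or P10 replicate 2 (FDR 0.342, 0.308 and 0.210). The Down ACS 209 kb upstream (chr1:253562946-253563229) showed 1.08, 1.46 and 2.32 CPM in the adult libraries and 2.93, 3.21 and 3.28 CPM in the P10 libraries. It did not overlap (log2 fold change -0.98, SE 0.37, FDR 0.102) and was no longer called without Adult replicate 4, P10 replicate 2 or P10 replicate 3 (FDR 0.318, 0.239 and 0.240).

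The single Up ACS of Rfx3 was 301 kb upstream (chr1:253655338-253655574), with 4.16, 3.70 and 2.84 CPM in the adult libraries and 2.51, 0.856 and 1.32 CPM in the P10 libraries. The adult libraries were all higher (log2 fold change 1.16, SE 0.38, FDR 0.0534), and the call was lost without P10 replicate 2 or P10 replicate 3 (FDR 0.283 and 0.211) and with total reads as library sizes (FDR 0.564). A neighbouring ACS 303 kb upstream, much wider at 1037 bp, had 16.0 ± 1.41 CPM in adults and 19.8 ± 5.70 CPM at P10 (SD, n = 3 each) and a log2 fold change of -0.30 (FDR 0.462). Just outside the FDR limit lay an ACS 122 kb upstream (log2 fold change -0.46, SE 0.22, FDR 0.219) and one 134 kb inside (log2 fold change 1.01, SE 0.48, FDR 0.221), which differed in opposite directions, each without overlap.

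At the TSS ACS of Rfx3 (chr1:253353727-253355400), the member ACS widest of all at 1674 bp, 37.7, 39.9 and 39.2 CPM in the adult libraries and 49.6, 50.6 and 39.3 CPM in the P10 libraries were measured. The lowest P10 library lay within the adult values, and the difference did not pass the test (log2 fold change -0.26, SE 0.16, FDR 0.399). It was called Down with column sums (-0.35, FDR 0.166) and total reads (-1.11, FDR 0.00297) as library sizes. Of the 30 Rfx3 ACS not called, 20 had a negative and 10 a positive log2 fold change, with a median of -0.19. Many of these ACS were weak. A mean count under 20 was found at 10 of the 36 (1 Down), a mean from 20 to 50 at 17 (1 Up, 3 Down) and 50 or more at 9 (1 Down). Among all ACS the low class was called Up in 0.482% and Down in 5.60%, the middle class in 6.43% and 7.94%, and the high class in 17.3% and 6.17%.

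**Figure D2:**
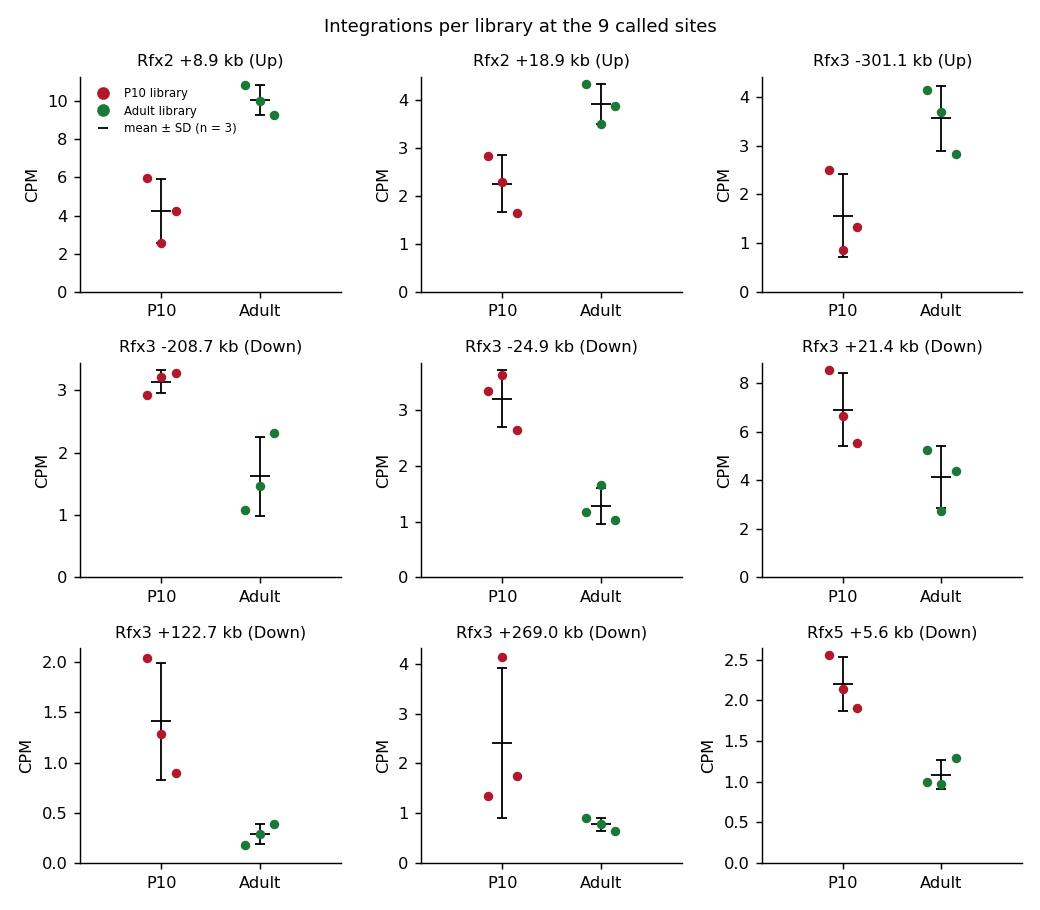
CPM of each library at the 9 called ACS, with the gene, the distance from its start and the call above each panel, and the mean and SD in black. Adult and P10 libraries do not overlap in any panel, and at 269.0 kb in Rfx3 1 P10 library stands above the others.

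Summed over its 36 ACS, Rfx3 gave 156, 154 and 155 CPM in the adult libraries and 207, 178 and 169.5 CPM in the P10 libraries. Each adult library was below each P10 library and the adult values lay close together (log2 fold change -0.25, SE 0.12, 95% interval -0.49 to -0.01, FDR 0.209). The sum did not pass the limit, with an unadjusted p-value of 0.0396, and it passed without P10 replicate 3 (FDR 0.186), with column sums as library sizes (FDR 0.0888), with the total reads of the study (FDR 0.00075), with cyclic loess (FDR 0.0663) and with DESeq2 (FDR 0.187). It did not pass with median-of-ratios size factors, filterByExpr, limma-voom or any other library left out, where the FDR ran from 0.208 to 0.433. Genes varying most like Rfx3 were Disp2 (r 0.990), Egr1 (0.989) and Fosb (0.987), of which Egr1 and Fosb encode transcription factors induced rapidly by stimuli, and their summed log2 fold changes were -0.35, -0.66 and -0.54.

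**Figure D3:**
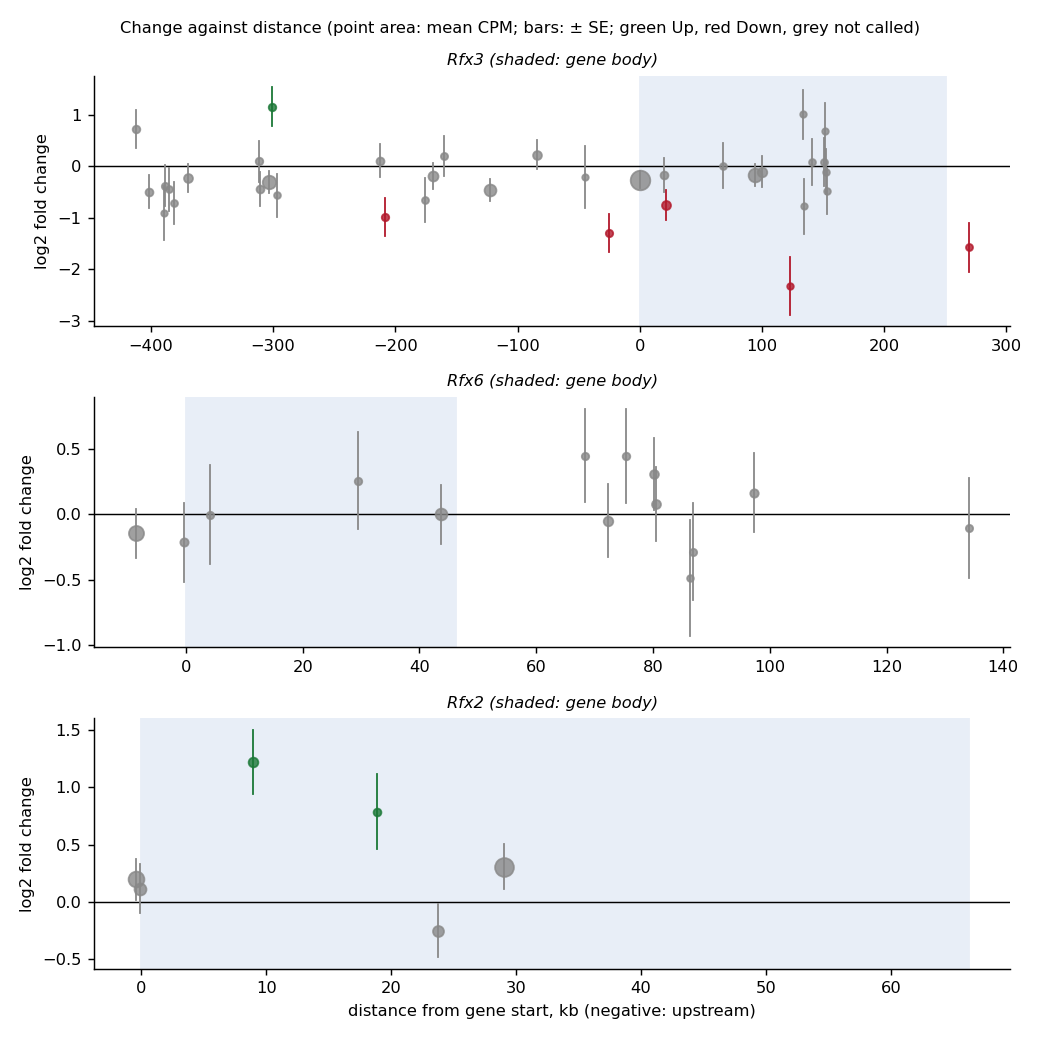
Log2 fold change (adult over P10, ± SE) against distance from the gene start in kb for Rfx3, Rfx6 and Rfx2, with gene bodies shaded and point area growing with mean CPM. Called ACS of Rfx3 are spread from 301 kb upstream to 269 kb downstream of the start, those of Rfx2 lie 8.95 and 18.9 kb inside the gene, and Rfx6 has none.

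Rfx2, which activates cilia genes and is needed for sperm formation, lies on chromosome 9 (chr9:9214191-9280395). Both of its called ACS were Up and inside the gene. The proximal one, 8.95 kb from the start (chr9:9223138-9223583), had 10.8, 10.0 and 9.28 CPM in the adult libraries and 5.95, 2.57 and 4.23 CPM in the P10 libraries. It was 2.34-fold higher in adults without overlap (log2 fold change 1.22, SE 0.28, FDR 0.00448), had the smallest FDR of the family and was called without each library in turn. With total reads as library sizes the log2 fold change was 0.35 (FDR 0.383), where the median of all ACS was -0.84.

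The distal one, 18.9 kb from the start (chr9:9233061-9233391), had 4.34, 3.51 and 3.87 CPM in the adult libraries and 2.84, 2.28 and 1.64 CPM in the P10 libraries. All adult values were higher (log2 fold change 0.79, SE 0.33, FDR 0.151), but the call was lost without Adult replicate 4, Adult replicate 6, P10 replicate 2 or P10 replicate 3 (FDR 0.318, 0.233, 0.332 and 0.439) and with column sums as library sizes (FDR 0.211), and the sign turned with total reads as library sizes (-0.08).

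The Rfx2 ACS with the most integrations was also intragenic, 29.1 kb from the start (chr9:9243244-9243877), and gave 54.9, 45.3 and 29.4 CPM in the adult libraries and 43.0, 33.7 and 28.3 CPM in the P10 libraries. Libraries of both ages spread widely and overlapped (log2 fold change 0.31, SE 0.20, FDR 0.406), although the ACS was called Up without Adult replicate 6 (FDR 0.122) or P10 replicate 1 (FDR 0.178). Between it and the Up ACS, an ACS 23.8 kb from the start had 9.46 ± 0.725 CPM in adults and 11.3 ± 2.15 CPM at P10 (SD, n = 3 each) and a log2 fold change of -0.25 (95% interval -0.73 to 0.22, FDR 0.598). The TSS ACS chr9:9213738-9214069 showed 32.1, 27.0 and 25.0 CPM in the adult libraries and 24.8, 26.3 and 22.3 CPM in the P10 libraries, with overlap and a log2 fold change of 0.20 (95% interval -0.17 to 0.57, FDR 0.589). Its neighbour over the start (chr9:9214119-9214360) showed 12.2, 13.9 and 14.4 CPM in the adult libraries and 13.2, 12.4 and 11.7 CPM in the P10 libraries, again with overlap, at 0.12 (95% interval -0.32 to 0.55, FDR 0.823).

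The Rfx2 sum over 6 ACS was 116, 110.0 and 94.8 CPM in the adult libraries and 98.4, 89.7 and 79.6 CPM in the P10 libraries. The lowest adult library fell within the P10 values and the sum was not called (log2 fold change 0.26, SE 0.12, 95% interval 0.01 to 0.51, FDR 0.209), with an unadjusted p-value of 0.0396. It was called Up without Adult replicate 6 (FDR 0.180) or P10 replicate 1 (FDR 0.0845) and with median-of-ratios size factors (FDR 0.197), and Down with total reads as library sizes (-0.58, FDR 0.0278). The ratio of the Rfx2 sum to the Rfx3 sum does not depend on how libraries are scaled and was computed after the values had been seen, so it is a description. On the log2 scale it was -0.42, -0.48 and -0.71 in adults and -1.07, -0.99 and -1.09 at P10, a difference of 0.51 between the means without overlap. This pair had the largest difference of the 15 pairs of sums, of which 9 did not overlap between the ages. The 15 pairs reuse the same 6 sums, and the share of pairs without overlap among all genes was not computed. For Rfx2 and Rfx3 an exact permutation test gave p = 0.1 (0.167 after Benjamini-Hochberg adjustment over the 15 pairs). With 3 against 3 libraries, 0.1 is the smallest value possible.

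Rfx1, the founding member, lies on chromosome 19 (chr19:36158698-36189544) and had 2 ACS. Its TSS ACS (chr19:36158100-36159306) gave 114, 80.8 and 86.4 CPM in the adult libraries and 99.5, 87.4 and 86.1 CPM in the P10 libraries. The ages overlapped at a log2 fold change of 0.04 (95% interval -0.27 to 0.36, FDR 0.921), which turned negative with column sums or total reads as library sizes. The distal ACS 17.6 kb inside the gene had 4.26 ± 0.405 CPM in adults and 4.56 ± 0.818 CPM at P10 (SD, n = 3 each), at -0.11 (95% interval -0.70 to 0.48, FDR 0.888). The sum of both was 110.0, 86.5 and 94.3 CPM in the adult libraries and 101, 91.6 and 93.5 CPM in the P10 libraries, without a call (log2 fold change 0.03, SE 0.12, 95% interval -0.22 to 0.27, FDR 0.926).

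Rfx5, the DNA-binding subunit of the complex at class II promoters, lies on chromosome 2 (chr2:215615266-215622781). Its TSS ACS (chr2:215614863-215615611) gave 53.2, 39.3 and 37.0 CPM in the adult libraries and 50.2, 39.0 and 38.8 CPM in the P10 libraries. These values overlapped at a log2 fold change of 0.02 (95% interval -0.34 to 0.38, FDR 0.973), whose sign turned with column sums, cyclic loess or total reads. A weak proximal ACS 5.63 kb inside the gene (chr2:215620900-215621228) gave 0.994, 0.974 and 1.29 CPM in the adult libraries and 2.56, 2.14 and 1.90 CPM in the P10 libraries. It was called Down without overlap (log2 fold change -1.03, SE 0.40, FDR 0.116), and the call was lost without Adult replicate 4, P10 replicate 1 or P10 replicate 2 (FDR 0.236, 0.253 and 0.237) and with cyclic loess (FDR 0.207). The gene sum was 50.7, 40.9 and 39.7 CPM in the adult libraries and 50.6, 41.3 and 42.1 CPM in the P10 libraries and was not called (log2 fold change -0.03, SE 0.14, 95% interval -0.31 to 0.25, FDR 0.932).

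Rfx7, on chromosome 8 (chr8:73807892-73927996), had 3 ACS and no call. The TSS ACS (chr8:73927539-73928728) showed 18.9, 18.7 and 16.2 CPM in the adult libraries and 24.3, 21.8 and 21.5 CPM in the P10 libraries. Every adult library was lower, yet the difference did not pass the test (log2 fold change -0.33, SE 0.19, FDR 0.342). It was called Down with column sums (FDR 0.147), cyclic loess (FDR 0.120) and total reads. The distal ACS 23.2 and 39.7 kb upstream went the other way without passing, at log2 fold changes of 0.20 (95% interval -0.59 to 0.99, FDR 0.838) and 0.19 (95% interval -0.28 to 0.65, FDR 0.719). The sum was 31.3, 31.9 and 30.2 CPM in the adult libraries and 35.3, 33.6 and 33.6 CPM in the P10 libraries, with all adult values below those of P10 and no call (log2 fold change -0.13, SE 0.13, 95% interval -0.41 to 0.14, FDR 0.592).

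Thus 0 of the 6 gene sums were called by edgeR, where 10.5% of all 14776 gene sums were called Up and 7.63% Down, and 2 of them had an unadjusted p-value under 0.05. DESeq2 called 1 of them Down, Rfx3 (FDR 0.187), and limma-voom called 0. Over all gene sums DESeq2 called 1622 Up and 1086 Down, and limma-voom 1537 and 987.

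**Figure D4:**
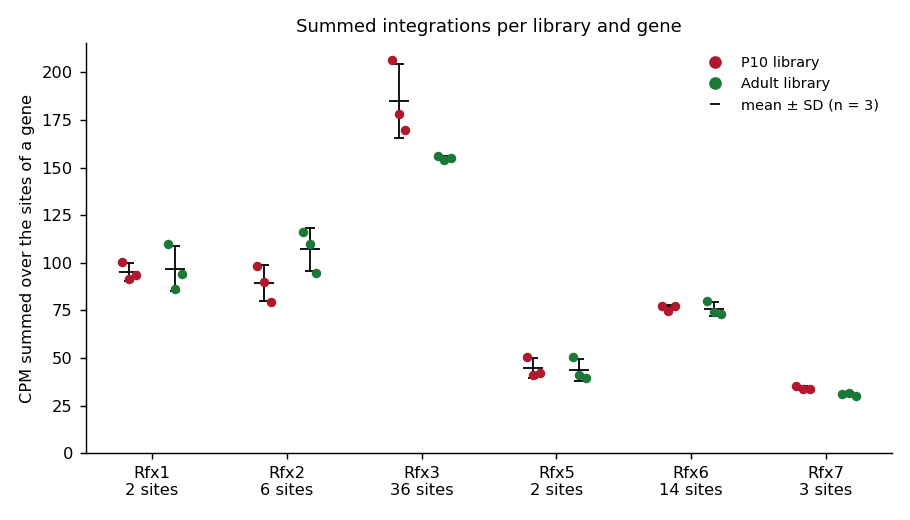
CPM summed over the ACS of each gene in each library, with the mean and SD in black. The adult values of Rfx3 (153.9 to 156) and of Rfx7 (30.2 to 31.9) lie below all P10 values of the same gene, and the other 4 genes overlap.

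To ask whether promoter and remaining ACS of a gene moved apart, the share of a gene's integrations that fell in its TSS ACS was compared. This share does not depend on the scaling of libraries, and an exact two-sided permutation test of 3 against 3 libraries cannot give a p-value under 0.1. For Rfx7 the share was 56.3, 59.4 and 55.8% in the adult libraries and 66.0, 64.9 and 66.0% in the P10 libraries. It was lower in every adult library, by 8.44 percentage points on average (exact permutation p = 0.1, 0.3 after Benjamini-Hochberg adjustment over the 6 genes). For Rfx5 it was 98.2, 97.6 and 96.6% in the adult libraries and 95.2, 94.8 and 95.3% in the P10 libraries. It was higher in every adult library, by 2.37 points, with the same p-values. The shares of Rfx1 (95.5 ± 1.10% in adults and 95.2 ± 0.463% at P10), Rfx2 (38.8 ± 3.92% and 41.5 ± 3.85%), Rfx3 (25.0 ± 2.12% and 25.2 ± 2.92%) and Rfx6 (4.84 ± 0.944% and 5.51 ± 0.418%) overlapped between the ages (SD, n = 3 each).

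**Figure D5:**
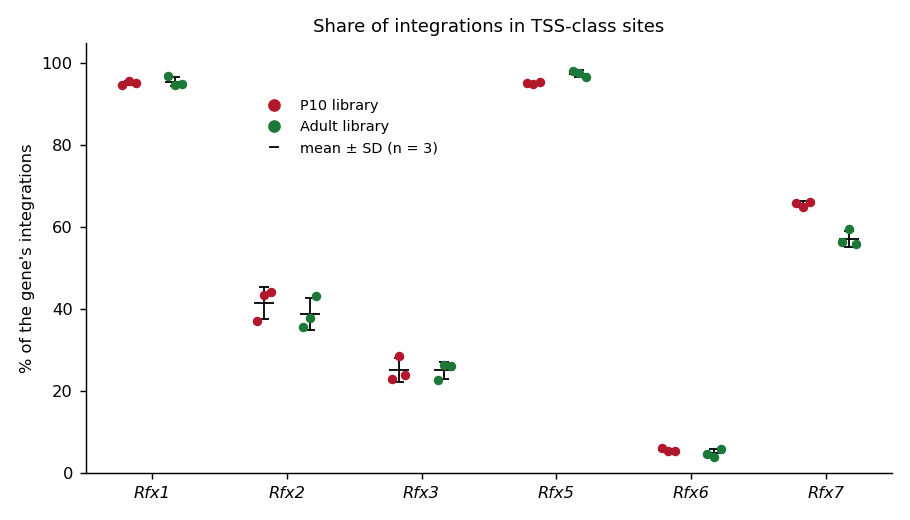
Percentage of each gene's integrations that lie in its TSS ACS, per library, with the mean and SD in black. The share runs from about all integrations in Rfx1 and Rfx5 to a few percent in Rfx6, and the ages separate in Rfx5 and Rfx7.

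Partners of the family were read from lists of known genes. The partners of Rfx5 at class II promoters (Rfxap, Ciita, Creb1 and the subunits of nuclear factor Y had ACS, Rfxank had none) held 25 ACS, of which 5 were Up and 3 Down (20% and 12%, against 12.3% and 6.63% of all ACS), with a median log2 fold change of -0.04. The clearest Up ACS was inside Nfya, at 5.69, 5.55 and 4.90 CPM in adults against 2.09, 2.21 and 2.01 CPM at P10 (log2 fold change 1.36, SE 0.30, FDR 0.00393). The clearest Down ACS lay 18.5 kb upstream of Ciita, the class II transactivator, at 1.27, 2.05 and 1.29 CPM in adults against 3.25, 5.28 and 3.65 CPM at P10 (log2 fold change -1.38, SE 0.36, FDR 0.0136). Neither overlapped between the ages.

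Of the 9 class II genes 5 had ACS, 13 in all, with 1 Up and 1 Down (7.69% and 7.69%, against 12.3% and 6.63% of all ACS) and a median of -0.33. The Up ACS was the TSS of Cd74, the invariant chain, at 31.9, 26.4 and 36.7 CPM in adults against 16.2, 15.9 and 17.6 CPM at P10 (log2 fold change 0.93, SE 0.19, FDR 0.00136). The Down ACS was in RT1-DOa, at 2.35, 4.19 and 4.51 CPM in adults against 5.86, 8.56 and 4.33 CPM at P10 (log2 fold change -0.77, SE 0.32, FDR 0.142), where the groups overlapped. Cd74 also stands among the immune cell markers, whose sums are given above.

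Genes of cilium assembly, classical targets of Rfx2 and Rfx3, had 87 ACS at 17 of 23 genes. Of these 11 were Up and 5 Down (12.6% and 5.75%, against 12.3% and 6.63% of all ACS), with a median of -0.03. Dync2h1, the motor of retrograde transport in cilia, held the clearest ACS of both directions, 22.0, 16.7 and 18.3 CPM in adults against 3.07, 3.21 and 3.44 CPM at P10 (log2 fold change 2.55, SE 0.24, FDR 1.16e-07) and, at another ACS inside the gene, 12.0, 6.72 and 7.48 CPM in adults against 15.2, 14.0 and 17.1 CPM at P10 (log2 fold change -0.81, SE 0.24, FDR 0.0284). None of the 17 TSS ACS was Up and 1 was Down, where 2.73% and 7.87% of all TSS ACS were.

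Endocrine genes tied to Rfx3 or Rfx6 had 223 ACS at 18 of 23 genes, with 28 Up and 25 Down (12.6% and 11.2%, against 12.3% and 6.63% of all ACS) and a median of -0.03. The clearest Up ACS was 156 kb upstream of Slc2a2, the glucose transporter of beta cells, at 18.5, 13.3 and 21.7 CPM in adults against 7.76, 4.92 and 5.87 CPM at P10 (log2 fold change 1.51, SE 0.24, FDR 0.000124). The clearest Down ACS, weak in adults, lay 198 kb upstream of Ins1, an insulin gene, at 0.271, 0.779 and 0.773 CPM in adults against 2.09, 3.71 and 2.96 CPM at P10 (log2 fold change -2.28, SE 0.46, FDR 0.00152). At both, the ages did not overlap. The medians of these 4 lists stand beside -0.01 for all ACS, and the lists are described by counts, with no test of a list.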

How the data were processed

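ATAC-seq was analysed in islet cells of 3 adult rats and 3 litters at P10. The authors aligned reads to Rn5 with BWA 0.7.13, discarded mitochondrial and low-quality reads, called peaks with MACS2 2.1.1 on the pooled libraries of each age, merged the peak sets and deposited, for each library, the unnormalized count of Tn5 integrations in each ACS. Their own comparison (log2 fold changes, mean log2 CPM, F statistics, p-values and FDRs) stands in the same deposited table and was not used, whereas the nearest gene and its position were. SAMtools 1.3 and FastQC 0.11.2 are named in the submitters' processing notes. Removal of PCR duplicates is not given in the sources used here, so errors cover the counts as they stand.

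Of 101941 entries, 338 repeated an ACS and were counted once, and 0 columns of libraries were left out. Counts were fitted with age as the only term in edgeR 4.0.16 (R 4.3.3; TMM scaling, factors 0.93 to 1.04, no filter, Benjamini-Hochberg over 101603 ACS, or over 14776 genes for counts summed per nearest gene). CPM of single ACS and of sums were scaled by the factors of their own fit. Standard errors and 95% intervals were derived from the F statistic. Libraries of an age differed by more than counting error (chi-square per degree of freedom 3.35 to 7.81). Each library came from its own rat or litter. On simulated counts with 200 features changed 2-fold (1 on the log2 scale), 38% were recovered at the ACS level with 11 unchanged ACS called, and 99% at the gene level with 51 unchanged genes called. The changed features excluded those with low counts, and all features had the same dispersion. Changed ACS were also far fewer than called ACS in the data, where 12.3% were Up and 6.63% Down. The recovered shares are thus not the sensitivity for the measured ACS and sums.

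All members were described. ACS were named with values if they were of the TSS class, called, or the one with the highest mean CPM of a gene, and 1 called ACS per direction in each list. The other ACS with values, namely those next to a called one or at the threshold, 3 of Rfx6, and those of Rfx1 and Rfx7, were picked after their values were seen. The members and lists were chosen with earlier results of these data known. The sum of 1 cell type marker list is not reported here. Alternatives were other library sizes, cyclic loess with limma-trend, limma-voom (limma 3.58.1), DESeq2 1.42.0, a filter (minimum count 10, minimum total 15), an FDR under 0.05, another definition of promoter ACS and leaving out each library. A prior count of 2 was added for correlations of log2 CPM. Promoter windows are those of RefSeq (GRCr8). Figures were drawn with matplotlib 3.10.9.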

Additional observations from a re-analysis of the deposited data

How the results depend on the processing

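With each library left out in turn, the RFX ACS called Up numbered 1 to 5 and those called Down 2 to 8, and gene sums called numbered 0 to 1 in each direction. The calls over all 101603 ACS moved too, from 7973 to 13232 Up and from 3285 to 7215 Down. Over all 14776 gene sums they ran from 466 to 1879 Up and from 225 to 1459 Down. Signs changed on leaving out a library at the TSS ACS of Rfx1 (-0.12 to 0.14) and Rfx5 (-0.16 to 0.14), in the sums of Rfx1 (-0.076 to 0.10), Rfx5 (-0.15 to 0.060) and Rfx6 (-0.059 to 0.0076), and in the difference of TSS shares of Rfx1 (-0.35 to 0.66 points) and Rfx3 (-1.20 to 1.53 points). Among the 9 called ACS, 3 were called in all of these fits.

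Total reads per library as library sizes moved the median of all ACS to -0.84 and that of the RFX ACS to -0.97, giving 0 Up and 42 Down ACS, among them all 7 of the TSS class, and 6 Down sums. In the same fits 61663 of all 101603 ACS and 12745 of all 14776 gene sums were Down. The sign then turned at the TSS ACS of Rfx1 (-0.80), Rfx2 (-0.64 and -0.73) and Rfx5 (-0.84), at the Rfx2 ACS 18.9 kb (-0.076) and 29.1 kb (-0.55) from the start, and in the sums of Rfx1 (-0.81) and Rfx2 (-0.58). Column sums moved the median to -0.10 and turned the TSS ACS of Rfx1 (-0.056) and Rfx5 (-0.080) and the Rfx1 sum (-0.062), with 1 Down sum. Cyclic loess gave 5 Up ACS and 1 Down sum and turned the TSS ACS of Rfx2 over the start (-0.016) and of Rfx5 (-0.059) and the Rfx1 sum (-0.066). Median-of-ratios factors gave 1 Up sum and DESeq2 1 Down sum. An FDR under 0.05 left 1 Up and 3 Down ACS (7177 and 1945 over all ACS). The filter left 60 RFX ACS, with 3 Up and 6 Down (12483 and 6876 over all ACS), and limma-voom gave 4 Up and 6 Down (12351 and 6254). The cause of these changes beyond scaling or fewer libraries was not tested. With each library left out, the differences of TSS shares ran from -9.58 to -7.73 points in Rfx7 and from 2.01 to 2.78 points in Rfx5. Their sign could not turn in these fits, because the shares of the ages did not overlap in either gene.

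No paired analysis was possible because the adult libraries are numbered 4 to 6 and the P10 libraries 1 to 3, so the groups share no number. Depth limits the weak ACS, and no group reached the size for a check of outlying libraries.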
